A study of Mus musculus with 7 samples.

Results

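Tph1 and Arg1 were followed here in the hormone-sensing (HS) luminal cells of the mouse mammary gland, as 2 of the 27998 genes counted by single-cell RNA sequencing. Both were chosen on values measured in these same libraries, namely their level in HS cells of aged against young mice and their near absence from other cell types. The age difference and the restriction to HS cells are therefore given as descriptions, with no test. The groups were 3 young mice of 3 to 4 months (young A, B and C) and 4 aged mice of 13 to 14 months (aged A, B, C and D). All 7 were nulliparous females of a mixed FVB, 129 and C57BL/6J background, staged at diestrus, with 1 library each and no treatment. Of the 13684 cells, 2138 carried the authors' label Luminal-HS, 1571 of them from young and 567 from aged mice.

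HS cells are the luminal cells that carry receptors for estrogen, progesterone and prolactin and pass those signals on to their neighbours. Tph1 encodes tryptophan hydroxylase 1, which makes 5-hydroxytryptophan from tryptophan in the rate-limiting step of serotonin synthesis outside the nervous system. In the mammary gland serotonin is known as a local signal of the lactating epithelium. Arg1 encodes arginase 1, which splits arginine into ornithine and urea. It is best known from the urea cycle of the liver and from alternatively activated macrophages.

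Tph1 (ENSMUSG00000040046) lies on the minus strand at chr7:46644641-46672537 and Arg1 (ENSMUSG00000019987) on the minus strand at chr10:24915221-24927484, both in GRCm38, the assembly that mm10 names. The first listed transcripts in GENCODE have 11 exons for Tph1 and 8 for Arg1. RefSeq promoter sequences were at hand for 2 start sites of Tph1, and the 250 bases before each are shown as the sequence that adjoins the start of transcription. The outer start lies at the end of the annotated gene (promoter chr7:46672538-46672787, GRCm38.p6, minus strand) and the inner start lies inside it (chr7:46667378-46667627, minus strand, overlapping no annotated Tph1 exon). Both are written 5′ to 3′, and capitals mark matches to TGACG, the core of the cyclic AMP response element, on either strand.
Tph1 outer start: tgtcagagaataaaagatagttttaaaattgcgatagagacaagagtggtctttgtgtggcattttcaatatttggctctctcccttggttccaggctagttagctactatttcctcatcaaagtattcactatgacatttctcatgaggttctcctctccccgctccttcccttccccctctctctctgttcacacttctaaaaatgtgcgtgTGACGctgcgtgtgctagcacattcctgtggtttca
Tph1 inner start: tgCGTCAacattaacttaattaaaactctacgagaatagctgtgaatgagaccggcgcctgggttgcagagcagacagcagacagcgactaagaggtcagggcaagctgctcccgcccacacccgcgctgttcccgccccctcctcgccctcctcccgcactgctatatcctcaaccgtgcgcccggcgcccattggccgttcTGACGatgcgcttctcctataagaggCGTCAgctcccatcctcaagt
TGACG occurred 1 time before the outer start, at bases -36 to -32, and 3 times before the inner start, at -248 to -244, -47 to -43 and -21 to -17. Of 32851 mouse promoters of that length, 17.8% held it. Neither Tph1 promoter held a STAT5 site (TTCNNNGAA, in 7.02% of promoters), a STAT6 site (TTCNNNNGAA, 5.85%), a C/EBP site (TTNNGNAA, 36.8%) or an estrogen response element (GGTCANNNTGACC, 0.0639%). These matches describe letters in a window and no factor binding was measured.

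The HS label was checked against its 5 markers, which the authors had also used to name the cells. Prlr, the prolactin receptor, was at 1349 ± 361 CPM in HS cells (UMIs of the gene per 1000000 UMIs summed over the cells of that type in a mouse, mean ± SD, n = 7). Outside HS cells and the HS-AV cells described further on it reached 212 CPM at most. Cited1, a coactivator in estrogen receptor signalling, was at 650 ± 252 CPM in HS cells and at 38.8 CPM at most outside those same types. Pgr and Esr1, the progesterone and estrogen receptors, were less apart, at 94.4 and 40.2 CPM in HS cells against 28.7 and 23.4 CPM at most, and Prom1 was at 68.0 against 27.0 CPM. In HS-AV cells Prlr, Pgr and Esr1 were higher than in HS cells, at 1774, 103 and 70.5 CPM. HS cells held a median of 6588 to 7106 UMIs in the young and 7769.5 to 9616.5 in the aged mice, so a gene was more likely to be seen in an aged cell. Of 13583 barcodes, 101 occurred in more than 1 library, and 33 HS cells carried one. The age group and the processing of its libraries cannot be told apart.

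Tph1 was higher in the HS cells of all 4 aged mice than in those of all 3 young mice. Its level was 158, 27.1 and 41.5 CPM in young A, B and C and 347, 230.2, 356 and 300.5 CPM in aged A, B, C and D. Young A stood far above the other young mice, and the groups did not overlap. The means were 75.4 ± 71.7 CPM (SD, n = 3) and 308 ± 57.6 CPM (SD, n = 4), a 4.09-fold difference that became 8.996-fold without young A. The share of HS cells with at least 1 Tph1 UMI was 29.9%, 11.6% and 10.4% in young A, B and C. It was 53.1%, 41.4%, 52.7% and 50% in aged A, B, C and D, above every young mouse.

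Arg1 followed the same order of groups with a larger fold. Its level was 43.7, 53.6 and 8.66 CPM in young A, B and C and 283, 232, 259 and 176 CPM in aged A, B, C and D. Young C was lowest for Arg1, whereas young B was lowest for Tph1. The means were 35.3 ± 23.6 CPM and 238 ± 45.9 CPM, a 6.73-fold difference, with no overlap. A UMI was seen in 17.8%, 17.9% and 4.63% of young HS cells and in 46.9%, 63.2%, 52.7% and 64.1% of aged HS cells. In the fit over all genes described with the pathway genes, the log2 fold change was 2.17 ± 0.47 (SE) for Tph1 and 2.92 ± 0.47 for Arg1, in a fit that called 3.93% of 8457 genes higher. Since that contrast chose both genes, nothing is read from it.

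**Figure D1:**
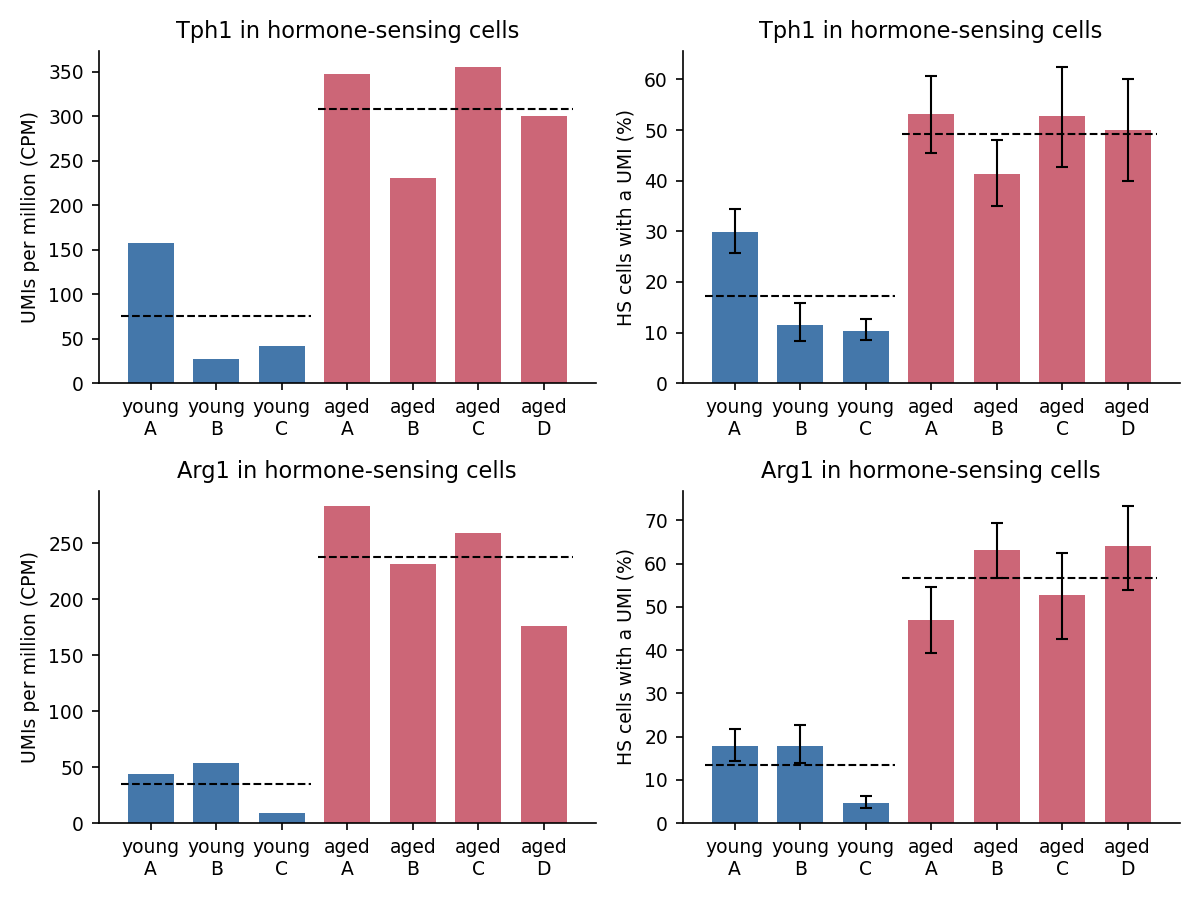
Level in CPM (left) and share of HS cells with a UMI (right) of Tph1 (top) and Arg1 (bottom) in each mouse, with group means as dashed lines and 95% Wilson intervals of the shares, which cover counting error only. Every aged mouse lies above every young mouse in all 4 panels, and young A, at 158 CPM, is the highest of the young mice for Tph1.

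In aged mice more HS cells held a UMI, and positive cells held more UMIs. At such low counts a higher level alone raises both values, so they are not separate parts of the difference. The share counts cells with a UMI and not cells that express the gene. For Tph1 the share of positive cells differed 2.85-fold and the mean UMIs in a positive cell 2.02-fold. For Arg1 these ratios were 4.22 and 2.21. Aged HS cells were deeper, and the level within positive cells, scaled to their own UMIs, differed 1.65-fold for Tph1 and 1.76-fold for Arg1. After each cell was thinned to 2000 UMIs, Tph1 was seen in 16.6%, 5.26% and 5.32% of young and in 30.2%, 21.8%, 34.4% and 29.3% of aged HS cells. Arg1 was then seen in 6.64%, 9.12% and 1.85% of young and in 27.2%, 30.5%, 25.8% and 26.1% of aged HS cells. The groups still did not overlap at equal depth. Shares fell in both groups, so the gap narrowed from 32.0 to 19.9 percentage points for Tph1 and from 43.3 to 21.5 for Arg1. The ratio of the mean shares did not narrow, at 3.20 for Tph1 and 4.66 for Arg1 in thinned cells.

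Both transcripts were unevenly spread among HS cells. In young mice 1322 of 1571 HS cells held no Tph1 UMI and 43 held 5 or more, and the 5% of cells with the most held 67.2% of all Tph1 UMIs. In aged mice 295 of 567 held none and 103 held 5 or more, and the top 5% held 38.8%. For Arg1 the top 5% held 68.2% in young and 31.4% in aged mice. The highest counts in a single cell were 28 Tph1 UMIs in a young and 44 in an aged mouse. At a bar of 10 UMIs Tph1 was still seen in 5.56% to 7.53% of aged HS cells, and Arg1 in 0% to 5.56%, with 0 cells in aged D.

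**Figure D2:**
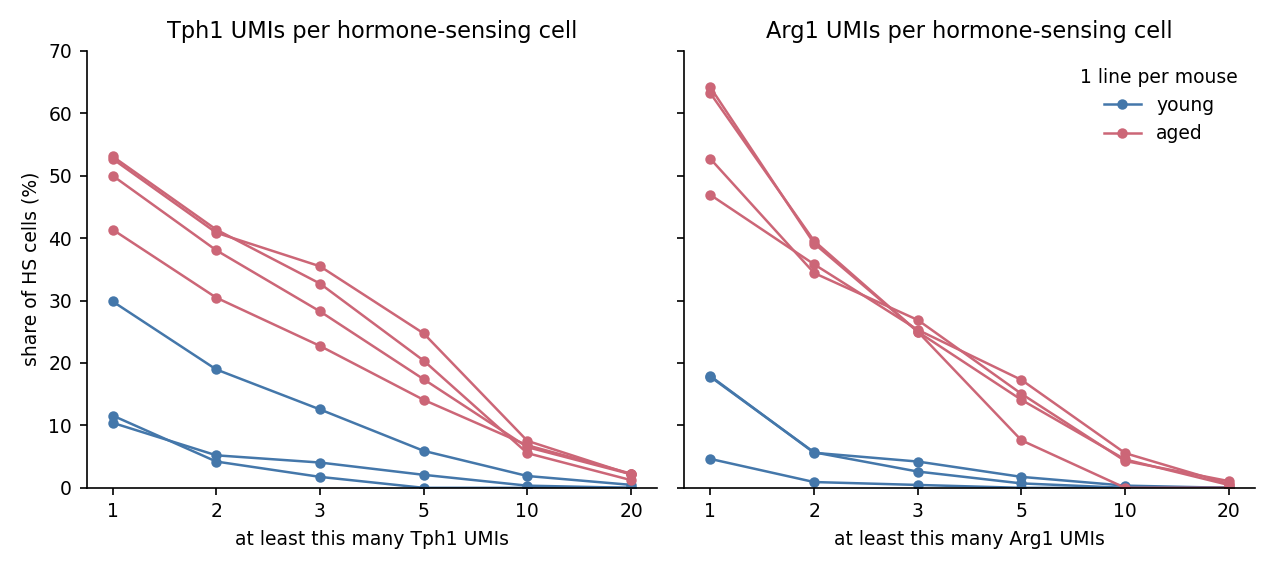
Share of HS cells with at least 1, 2, 3, 5, 10 or 20 UMIs of Tph1 (left) and Arg1 (right), 1 line per mouse. The aged lines stay above the young lines at every step for Tph1, and for Arg1 up to 5 UMIs, after which aged D falls to 0%.

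Outside HS cells both genes were rare, except in 1 small group of luminal cells. Of 2407 Tph1 UMIs in all cells 2154 lay in HS cells, and of 1635 Arg1 UMIs 1438 did. This was the group that the authors labelled Luminal-HS-AV, after both luminal classes. In these cells Tph1 was at 121, 112 and 38.1 CPM in young A, B and C, against 158, 27.1 and 41.5 CPM in the HS cells of the same mice. In young B HS-AV cells held 70 Tph1 UMIs and HS cells 51, so that HS cells held 40.2% of the UMIs there and 84.9% to 95.6% in the other 6 mice. HS cells held 77.2% to 94.3% of the Arg1 UMIs of a mouse. The young A value rests on 12 HS-AV cells, and aged mice had 16 such cells in all, too few for a level. Arg1 in HS-AV cells was at 0, 30.4 and 6.81 CPM in young A, B and C, against 43.7, 53.6 and 8.66 CPM in their HS cells. Arg1 was seen in 25 of 273 HS-AV cells (9.16%), 6 of them among the 16 aged cells.

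In alveolar (AV) luminal cells, the luminal class that makes milk, Tph1 was at 2.19 ± 1.40 CPM and Arg1 at 4.55 ± 2.50 CPM (SD, n = 7). A Tph1 UMI was seen in 1.37% and an Arg1 UMI in 1.93% of 4820 AV cells (median depth 6632 UMIs). In fibroblasts the shares were 0.602% for Tph1 and 0.201% for Arg1 at a median depth of 4414 UMIs. The HS shares of both genes were above those of AV cells and fibroblasts in all 7 mice. Most AV cells with Arg1 held 1 UMI (77 of 93), while 3 held 5 or more, up to 10. In AV cells of young A 10 of the 15 Arg1 UMIs lay in 1 cell. AV cells of young B held 3 Arg1 and 0 Tph1 UMIs, and those of aged A 12 and 10, so the mix of both genes in AV cells rests on few UMIs and was not compared with that in HS cells.

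Arg1 was not detected in macrophages, where it is a classical marker of alternative activation. The count was 0 of 122 cells labelled Macrophage Ma, which allows a share of up to 2.46%, and 0 of 146 labelled Macrophage Mb, which allows up to 2.05%. Only 1 of the Ma and 22 of the Mb cells came from aged mice, so the limits describe mainly young glands. These limits are on cells with an Arg1 UMI, at median depths of 4347 and 5343 UMIs, and not on cells that express the gene at a low level. In T and B cells 3 of 60 cells held Arg1, 1 of them with 7 UMIs, and 1 lymphatic endothelial cell held 5. In young mice Tph1 was at 75.4 ± 71.7 CPM in HS and 90.6 ± 45.6 CPM in HS-AV cells (SD, n = 3), within their spread of each other. AV cells came next over all mice, within the spread of vascular endothelial cells (1.73 ± 0.97 CPM, n = 7). Arg1 was highest in HS cells (151 ± 114 CPM, n = 7). The T and B cells of 2 aged mice were at 24.4 and 113 CPM and rest on 2 positive cells, young HS-AV cells were at 12.4 CPM (0 to 30.4), and AV cells overlapped them.

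**Figure D3:**
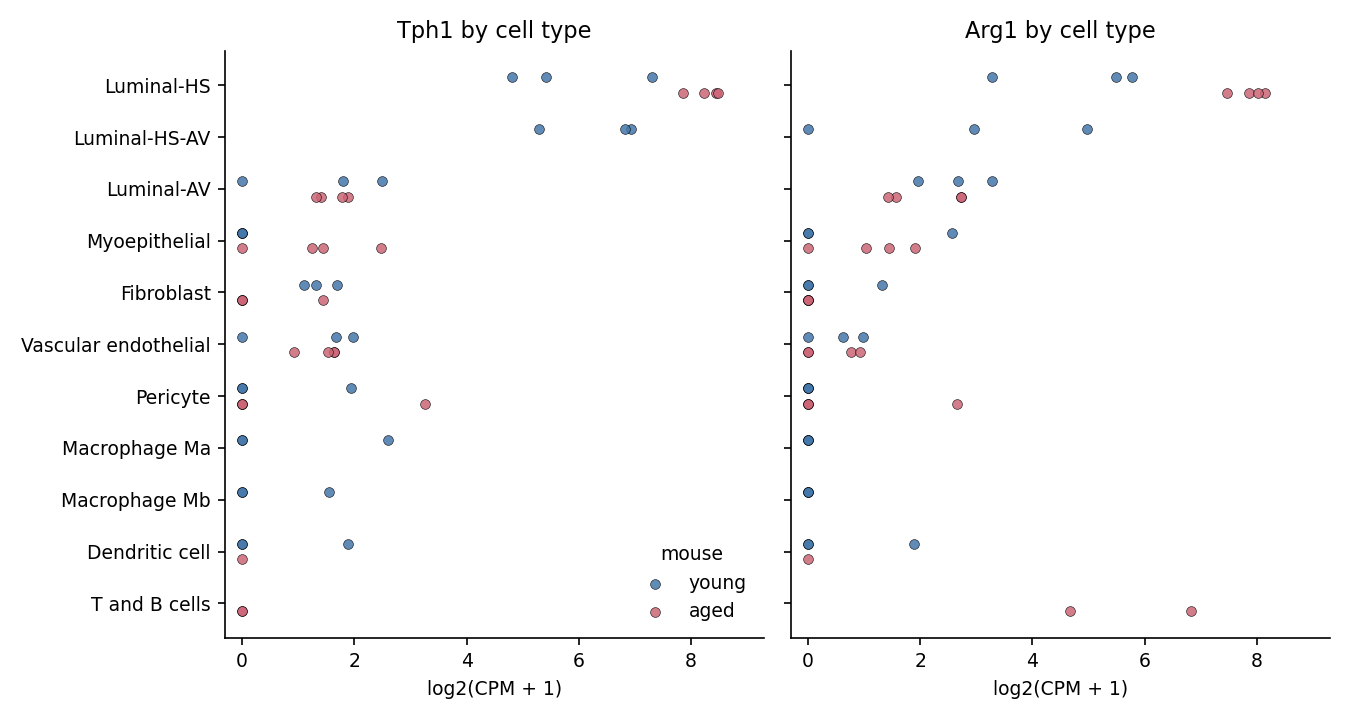
Level of Tph1 (left) and Arg1 (right) on the log2(CPM + 1) scale in each cell type, 1 point per mouse with at least 10 cells of that type. Aged HS cells lie farthest right for both genes, and HS-AV cells overlap young HS cells for Tph1. Both macrophage groups, shown for young mice only, lie at 0 for Arg1. Each T and B cell point of Arg1 rests on 1 positive cell.

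The genes that act with Tph1 were tested for age in HS cells with edgeR's quasi-likelihood test on UMI counts summed per mouse. The call asked for a change of 1.5-fold or more and for p under 0.05 after Benjamini-Hochberg adjustment. Of the genes tested, 3.93% were called higher and 2.33% lower in aged mice. Of the 7 other genes of serotonin synthesis 0 were called, and 5 passed the filter on low counts. Their median log2 fold change was 0.10, against 0.02 over all genes tested. At an unadjusted p under 0.05, 1992 of all genes passed. Ddc, the decarboxylase that turns 5-hydroxytryptophan into serotonin, had 0 UMIs in HS cells of all 7 mice, which allows up to 0.192 CPM, and 27 UMIs in all cells. Tph2, the paralog of neurons, had 0 UMIs in any cell. Qdpr, which regenerates the cofactor of the hydroxylase, was at 33.9 ± 2.96 CPM in young and 20.6 ± 4.03 CPM in aged mice and missed the threshold (edgeR adjusted p = 0.0825).

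Of 7 genes for serotonin transport and breakdown, 2 passed the filter and both rose with age. Maoa, the monoamine oxidase that degrades serotonin, was at 25.5, 21.8 and 12.9 CPM in young A, B and C. It was at 44.7, 32.1, 44.8 and 52.1 CPM in aged A, B, C and D, above every young mouse (log2 fold change 1.25 ± 0.26, edgeR adjusted p = 0.0202). Aldh2, the aldehyde dehydrogenase that acts after it, rose from 34.9 ± 7.02 to 52.9 ± 3.92 CPM (log2 fold change 0.73 ± 0.17, adjusted p = 0.0294). Both calls were lost with HS cells thinned to 2000 UMIs (edgeR adjusted p = 0.0832 for Maoa and 0.128 for Aldh2). Maoa lost its call without young C (adjusted p = 0.0811) or aged D (0.0532). Aldh2 lost it in 5 of 7 fits without 1 mouse, young A and aged A being the exceptions. Slc6a4, the serotonin transporter, and Slc18a2, a vesicular transporter, had 1 UMI each in HS cells. Of 11 serotonin receptors 0 passed the filter, and Htr1d, with 17 UMIs, had the most.

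Tryptophan has other uses in these cells. Ido1, which opens the kynurenine pathway from tryptophan, was highest in HS cells of all types, at 317 ± 224 CPM, with 5573 of its 6315 UMIs there. Its level ranged from 57.7 CPM in aged A to 619.5 CPM in aged B and showed no order by age (log2 fold change -0.24 ± 0.70, edgeR adjusted p = 0.879). Of the 6 genes of tryptophan uptake and other use 3 passed the filter and 0 were called.

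Around Arg1, 1 of 14 other genes of arginine breakdown and polyamines was called with age, with 13 passing the filter and a median log2 fold change of -0.04. Oat, which moves ornithine toward proline and glutamate, rose from 47.1 ± 1.01 to 70.1 ± 8.75 CPM (log2 fold change 0.68 ± 0.16, edgeR adjusted p = 0.0327), and the call was lost when any mouse but aged A was left out and with thinned cells (0.48, adjusted p = 0.310). Arg2, the mitochondrial arginase, was at 259, 173 and 194 CPM in young A, B and C and 102, 109, 163 and 149 CPM in aged A, B, C and D, without overlap, and missed the threshold (log2 fold change -0.56 ± 0.21, adjusted p = 0.139). Arg2 too was highest in HS cells among all types. Its mean was 164 ± 53.3 CPM there and 123 CPM in HS-AV cells. Odc1, which makes putrescine from ornithine, was at 68.2 ± 10.8 and 70.2 ± 19.0 CPM.

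Cps1 and Otc, the mitochondrial steps of the urea cycle, had 0 UMIs in any cell. Of the 10 genes of arginine and urea synthesis 4 passed the filter and 0 were called. Slc7a7, a carrier of basic amino acids, was the 1 gene called of 7 for arginine uptake and nitric oxide, rising from 5.03 ± 1.39 to 12.2 ± 3.08 CPM (log2 fold change 1.44 ± 0.34, edgeR adjusted p = 0.0351), and it lost its call when any mouse but aged A was left out. Slc7a2, another arginine carrier, was highest in HS cells, at 117 ± 40.4 CPM in young and 122 ± 32.8 CPM in aged mice. Nos1, Nos2 and Nos3, the nitric oxide synthases that compete for arginine, held 0, 2 and 8 UMIs in HS cells.

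Of 8 receptors and factors known to drive Arg1 in other cells, 2 rose. Il13ra1, a subunit of the interleukin 13 receptor, was at 38.6, 38.2 and 48.0 CPM in young A, B and C and 121, 59.4, 102 and 58.0 CPM in aged A, B, C and D (log2 fold change 1.10 ± 0.23, edgeR adjusted p = 0.0202), and its call was lost whichever young mouse was left out. Klf4, a zinc finger factor, rose from 389 ± 75.5 to 666 ± 137 CPM (log2 fold change 0.88 ± 0.21, adjusted p = 0.0372), and its call was lost when any mouse but aged A was left out. Stat6, Cebpb and Il4ra were not called. Of 12 hormone receptors and partners and of 7 prolactin signalling genes 0 were called. Prlr was at 1645 ± 203 and 1127 ± 283 CPM (adjusted p = 0.256), and Socs2, a target of prolactin signalling, at 45.2 ± 30.3 and 133 ± 60.0 CPM (adjusted p = 0.0576).

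Markers of other cell types also differed between the HS cells of both groups. The summed level of 6 immune markers was 69.5 to 86.7 CPM in young and 8.15 to 43.8 CPM in aged mice, and of 4 fibroblast markers 11.1 to 84.5 and 0 to 11.4 CPM. Of 4 genes of alternatively activated macrophages the sum was 16.4 to 37.6 CPM in young and 0 to 5.69 CPM in aged mice, Chil3 was at 0 throughout and Retnla fell (log2 fold change -4.00 ± 0.70, edgeR adjusted p = 0.0110, but 0.0952 with DESeq2). Cd74, at 64.9 ± 8.24 CPM in young and 21.3 ± 16.4 CPM in aged mice, made up most of the immune sum. Retnla, at 25.0 ± 9.97 and 1.42 ± 2.84 CPM, made up most of the sum of macrophage genes. The 7 myoepithelial markers summed to 26.3 to 47.2 and 46.2 to 148 CPM, with Krt14 and Krt17 called higher and Acta2 lower, calls that leaving out young C ended for Krt14 and Krt17 (adjusted p = 0.0952 and 0.0811) and leaving out any mouse but young C ended for Acta2. Leaving out young A or young B, or thinning the cells (adjusted p = 0.0539), also ended that of Krt14. The 6 AV markers summed to 452 to 895 and 316 to 1078 CPM, with Wfdc18 lower (-1.99 ± 0.37), and 5 vascular markers to 37.4 to 56.2 and 27.2 to 44.7 CPM. Of the immune, fibroblast and vascular markers 0 were called, with 2 of 6, 1 of 4 and 2 of 5 passing the filter. The part of these cells or RNAs in the difference of Tph1 and Arg1 was not tested.

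Whether Tph1 and Arg1 marked the same HS cells was not fixed by the choice of genes and was tested. HS cells with at least 1 of the 2 transcripts made up 42.4%, 27.4% and 14.6% in young A, B and C and 75.9%, 78.2%, 82.8% and 85.9% in aged A, B, C and D. Cells with both made up 2.59 ± 2.41% of young and 25.3 ± 2.50% of aged HS cells, and cells with neither 71.9 ± 13.9% and 19.3 ± 4.48%. Cells with Tph1 only and with Arg1 only were present in every mouse.

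The number of cells with both genes was close to what independent detection gives. Within 3 depth classes of equal size in each mouse, 23.3, 5.81 and 4.20 such cells were expected in young A, B and C, and 22, 6 and 4 were seen. In aged A, B, C and D 41.1, 57.6, 25.5 and 29.5 were expected and 39, 58, 21 and 26 were seen. The log2 Mantel-Haenszel odds ratio, above 0 where a cell with 1 transcript is more likely to hold the other, averaged -0.26 ± 0.56 (SD, n = 7). It was above 0 in 3 of 7 mice, 1 of which, young C, had no more such cells than expected. In that mouse few cells were positive, and 0.5 was added to each count. A difference from 0 was not detected (exact two-sided sign-flip permutation p = 0.328, where the smallest possible is 0.0156). The lowest values were -1.10 in aged C and -0.92 in aged D. In aged C, 42.9% of Arg1-positive and 63.6% of Arg1-negative cells held Tph1. The mean was 0.16 in young and -0.57 in aged mice, a difference of -0.73 that did not pass an exact two-sided permutation test (p = 0.114). With cells thinned to 2000 UMIs the overall mean was -0.49 (exact p = 0.156). The thinned values were -0.14, -1.75 and -0.94 in young A, B and C and 0.16, 0.43, -0.42 and -0.78 in aged A, B, C and D. The aged mean was then no longer the lower one. After thinning, 15 HS cells held Tph1 and 26 Arg1 in young B, and 46 and 16 in young C. The values of these 2 mice lean on the 0.5 added to each count. Nothing is therefore read from that order or from the thinned mean. Where at least 2 UMIs of each gene were asked for, the mean was 0.17 (exact p = 0.688). Young B then had 12 cells with Tph1 and 16 with Arg1, and young C 45 and 8. With so few cells the 0.5 added to each count weighs on the sign, and nothing is read from its change. A difference from 0 was not detected in any of these settings.

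**Figure D4:**
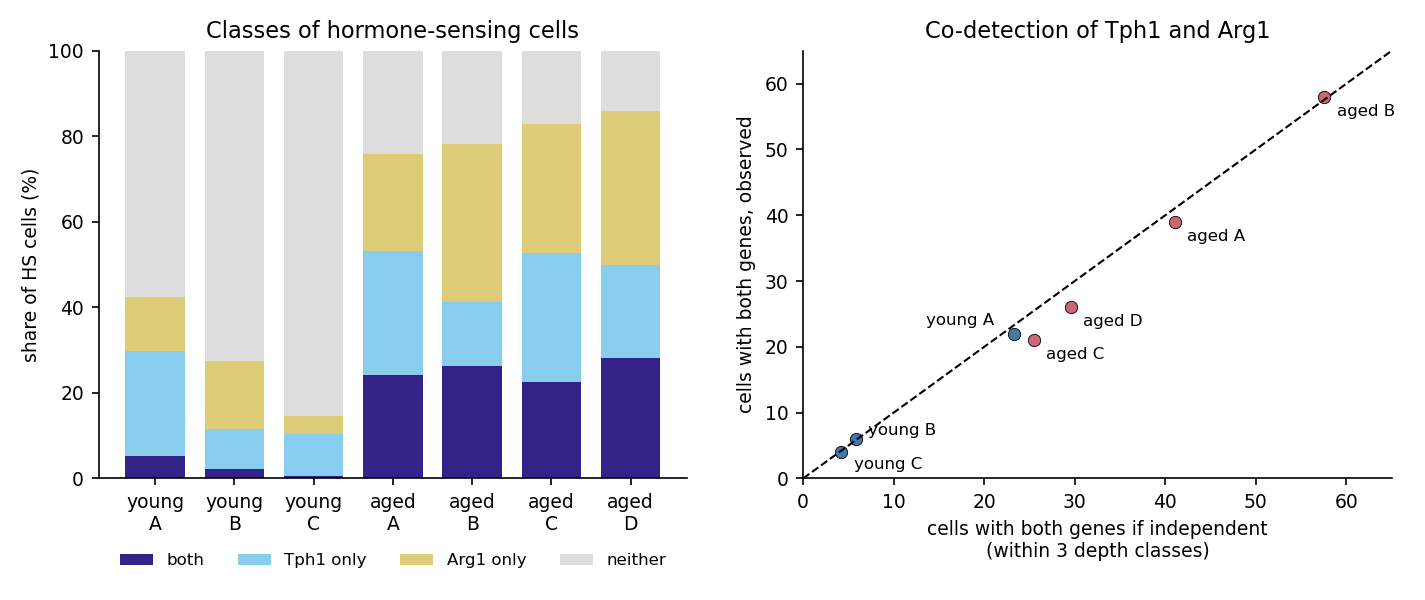
Left, share of HS cells of each mouse with both transcripts, Tph1 only, Arg1 only or neither; right, number of cells with both transcripts against the number expected if detection were independent within 3 depth classes, with the line of equality. Aged B, at 58 seen and 57.6 expected, lies on the line, and aged C, at 21 and 25.5, lies farthest below it.

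HS cells with and without Tph1 were then compared within each mouse, in an edgeR fit with the mouse as a block and Tph1 left out. Of 5099 genes tested 7 were higher in Tph1-positive cells (0.137%) and 7 lower (0.137%). Those that went the same way in all 7 mice were Crym, Tppp3 and Chtf8, higher, and Csn3, lower. Crym, which encodes a thyroid hormone binding protein, was at 69.9 ± 29.4 CPM in positive and 30.3 ± 23.5 CPM in negative cells (log2 fold change 1.30 ± 0.22, adjusted p = 0.00486). It was higher in positive cells in 7 of 7 mice, at 107 against 17.6 CPM in young C and 43.5 against 5.56 CPM in aged D, the mice with the largest ratios, and in the 4 aged mice alone it was not called (0.89, adjusted p = 0.266). Tppp3, a tubulin-binding protein, was at 79.6 ± 36.4 against 49.2 ± 22.3 CPM (0.74 ± 0.15, adjusted p = 0.0185), and its call was lost without young C (0.184) or aged B (0.0944). Chtf8, of a DNA clamp loader, had a log2 fold change of 0.61 ± 0.14 (adjusted p = 0.0427) and lost its call when any mouse but aged C or aged D was left out.

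Csn3, the milk protein kappa-casein and an AV marker, was lower in Tph1-positive HS cells. In positive against negative cells it was at 47.8 and 175 CPM in young A, 45.9 and 113 in young B and 42.1 and 155 in young C. In aged mice it was at 138 and 148 CPM in A, 71.2 and 76.8 in B, 93.3 and 136 in C and 302 and 583 in D. The gap was wide in young mice and narrow in aged A and B (log2 fold change -0.96 ± 0.17, edgeR adjusted p = 0.00486), and in aged mice alone it was not called (-0.47, adjusted p = 0.599), nor with cells thinned to 2000 UMIs (-0.92, adjusted p = 0.195). Trf, transferrin and also an AV marker, was lower too (-0.80 ± 0.19, adjusted p = 0.0429), except in aged B, and lost its call whichever young mouse was left out. Of 6 AV markers these 2 were called lower, with 5 passing the filter and a median of -0.08, against 0.00 over all genes. Ltf went the other way, higher in Tph1-positive cells of 7 of 7 mice but not called (0.32 ± 0.15, edgeR adjusted p = 0.590). Mfge8 was at 0.17 and Wfdc18 at -0.08, also not called, so AV markers did not fall as a group. Of the HS markers, Prlr was not called (0.02 ± 0.05, adjusted p = 0.979), and Prom1 was at 90.1 ± 36.4 against 61.0 ± 21.6 CPM, higher in 7 of 7 mice and past the p-value but under the fold asked for (0.52 ± 0.11, adjusted p = 0.0303). Among the genes of the serotonin, tryptophan, arginine, hormone receptor and prolactin lists and the markers of other cell types 0 more were called.

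The Arg1 comparison called other genes, except for Pcp4 and Hba-a1, which were called in both. Of 4677 genes tested 1 was higher in Arg1-positive HS cells (0.0214%) and 12 lower (0.257%), and 5 of those 12 were lower in all 7 mice. Ctsr, of the cathepsin family, was the higher one, in 6 of 7 mice (log2 fold change 1.62, adjusted p = 0.00634), a call lost without aged D (0.79, adjusted p = 0.0986), where it was at 1941 CPM in positive and 121 in negative cells. It is named after its values were seen. Odc1, the enzyme that uses the ornithine made by arginase, was lower in Arg1-positive cells. It was at 38.3 and 65.4 CPM in positive and negative cells of young A, 57.6 and 88.9 in young B and 45.5 and 62.4 in young C. In aged mice it was at 67.1 and 85.7 CPM in A, 34.6 and 82.7 in B, 94.7 and 98.3 in C and 53.4 and 125 in D (log2 fold change -0.69 ± 0.14, edgeR adjusted p = 0.0190). The call was lost without aged B (adjusted p = 0.134) or aged D (0.0692). It was the 1 gene called of the other 14 for arginine breakdown and polyamines, 9 of which passed the filter, and 0 genes of the other lists were called. The AV markers Csn3 and Trf were lower here too, each at -0.43, in 6 and 7 of 7 mice (edgeR adjusted p = 0.130 and 0.122). Ltf, which was higher in Tph1-positive cells, was at -0.47 here, lower in 5 of 7 mice and not called (edgeR adjusted p = 0.594). The AV median was -0.43, and Wfdc18 (0.25) and Mfge8 (0.01) did not fall. A lower Csn3 and Trf was thus not particular to Tph1-positive cells.

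Arg2 was higher in Arg1-positive cells in 7 of 7 mice. The level was 279 against 240 CPM in young A, 254.5 against 162 in young B, 301 against 191 in young C and, in aged A, B, C and D, 128 against 79.4, 134 against 104, 210.5 against 127 and 219.9 against 89.5. The log2 fold change, 0.57 ± 0.10, passed the p-value (edgeR adjusted p = 0.00176) and lay just under the 1.5-fold asked for. Areg, the growth factor through which estrogen acts on the duct, was lower in Arg1-positive cells of 6 of 7 mice (-0.57 ± 0.11, adjusted p = 0.0123), also under the fold.

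The other genes lower in Arg1-positive cells of every mouse were Prkcdbp, Prss23, Fam160a1 and Sprr1a. Prkcdbp, a caveolar coat protein, was at 55.9 ± 49.1 against 134 ± 87.2 CPM (log2 fold change -1.24 ± 0.15, edgeR adjusted p = 1.23e-05), and its call held whichever mouse was left out, but not in the 3 young mice alone (adjusted p = 0.0943). Prss23, a serine protease, was at 27.3 ± 10.5 against 63.2 ± 33.8 CPM (-1.17 ± 0.22, adjusted p = 0.00634), a call lost without aged B (adjusted p = 0.0629). The gap of Prss23 was small in young mice, with log2 ratios of -0.35, -0.18 and -0.49 in A, B and C. In aged A, B, C and D they were -0.93, -1.94, -2.41 and -1.58. Fam160a1 (-0.79 ± 0.19, adjusted p = 0.0458) lost its call whichever mouse was left out. Sprr1a, a precursor of the cornified envelope, was at 279 ± 155 against 476 ± 335 CPM (-0.69 ± 0.12, adjusted p = 0.00218), and fell under the fold without young B or aged C.

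Pcp4, a calmodulin-binding peptide, was called in both comparisons and in opposite directions, and it is named after its values were seen. It was higher in Tph1-positive cells (log2 fold change 2.16, edgeR adjusted p = 0.0119), most in aged D, at 672 CPM in positive and 0 in negative cells, and it lost that call without aged B (adjusted p = 0.0505). It was lower in Arg1-positive cells (-1.61, adjusted p = 0.0435), at 23.5 against 918 CPM in aged D, and lost the call without young A, aged A or aged D. Hba-a1, an alpha globin of red blood cells, was lower in the positive cells of both comparisons, in 5 of 7 mice each. It lost both calls without young B, the first also without young C and the second also without aged B. The gene that was left out of one fit was tested in the other. Arg1 in Tph1-positive cells had a log2 fold change of -0.26 ± 0.11 (adjusted p = 0.543), and Tph1 in Arg1-positive cells -0.30 ± 0.14 (adjusted p = 0.518). Arg1 was lower in 6 of 7 mice and Tph1 in 5 of 7. The unadjusted edgeR p was 0.0304 and 0.0469, and neither passed the adjustment over all genes tested. In young mice alone Tph1 was at 0.18, the other way, and Arg1 at -0.22.

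Positive and negative cells had like depths. The median UMIs of positive over negative cells was 0.962 to 1.09 for Tph1 and 0.961 to 1.12 for Arg1 over the 7 mice. Without the mouse as a block 0 genes were called in either comparison, since the spread between mice then enters the error.

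**Figure D5:**
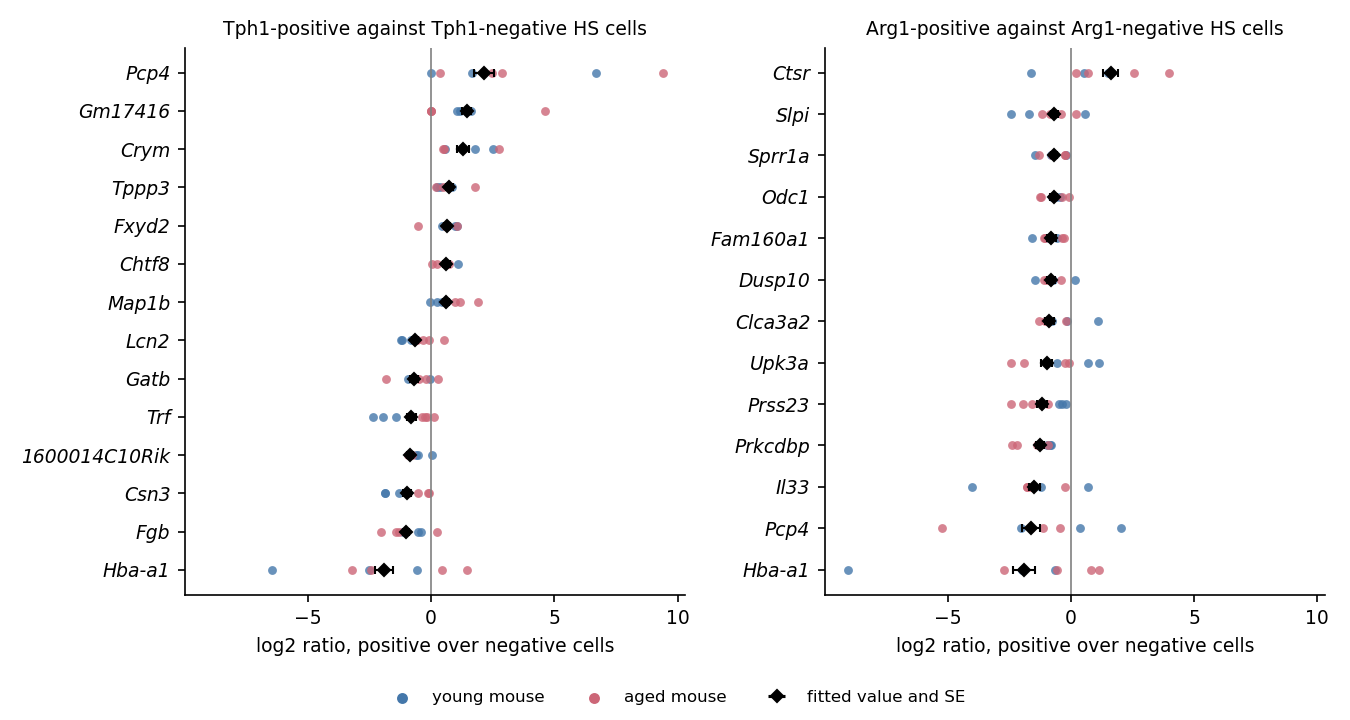
Every gene called between positive and negative HS cells for Tph1 (left) and Arg1 (right), as the log2 ratio of positive over negative cells in each mouse (1 CPM added to both) with the fitted log2 fold change and its SE. All 7 mice of Crym lie right of 0 and all 7 of Csn3 left of 0, while Pcp4 lies right in 6 mice for Tph1 and left in 5 for Arg1.

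The genes whose pattern over cell types and mice was most like that of each member were found as the highest Pearson correlations of log2(CPM + 1) over 58 sums of a cell type in a mouse, among 8258 genes. These sums share libraries and cell types, so r is a description. For Tph1 they were Rundc3a (r = 0.91), Dgki (0.87), Slc44a4 (0.87), Sprr1a (0.86) and Cbs (0.86). For Arg1 they were Sptlc3 (0.87), Cysrt1 (0.82), Cxcl17 (0.82), Muc16 (0.81) and Tmprss6 (0.80). Like Tph1, its 5 neighbours were next highest in HS-AV cells. Rundc3a was at 20.2 ± 7.24 CPM in HS cells of young and 21.96 ± 3.79 CPM in those of aged mice. Of the 10, 2 were called higher with age, as were 3.93% of all genes tested. The sums held HS cells of both ages, so genes that share the age difference were favoured and nothing is read from that count. The 2 were Cbs, cystathionine beta-synthase, at 4.13 ± 2.40 in young and 10.4 ± 1.84 CPM in aged, and Tmprss6, a membrane protease, at 4.49 ± 2.33 and 42.1 ± 25.4 CPM. The 2 members had r = 0.72 with each other, and Arg1 ranked 119th among the genes most like Tph1 and Tph1 38th among those most like Arg1.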

How the data were processed

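Cells of dissociated mammary glands of 3 young and 4 aged mice were profiled with 10x 3′ v2 libraries. Per the labels, reads were processed with Cell Ranger 2.0 against mm10, and the deposited UMI counts per gene and cell, with the authors' cell type labels, were used as raw counts without further filter on cells or genes. The authors filtered cells on UMIs, genes and the mitochondrial share before deposit, filters meant to take out likely doublets too, and estimated doublets with other tools. No doublet caller was run here. Libraries held 1264 to 2865 cells and 6652599 to 16999625 UMIs, and HS cells 736043 to 6118862 UMIs a mouse.

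Counts were summed per mouse over HS cells, or over HS cells with at least 1 UMI of a member and with none, where both classes held at least 5 cells. Sums were filtered with filterByExpr, scaled by TMM and tested with edgeR 4.0.16 (glmQLFit, glmQLFTest, R 4.3.3), with adjustment over all genes tested. SE was taken from the F statistic. CPM of positive and negative cells was TMM-scaled, and other CPM was UMIs per 1000000 UMIs. DESeq2 1.42.0 and other settings were alternatives. On simulated counts, 50% of genes changed 2-fold and 94% of those changed 4-fold were recovered in the age fit (8196 genes). For the Tph1 comparison these were 88% and 89%, and for the Arg1 comparison 91% and 80%. The simulation gave every gene the same dispersion, unlike real genes, so these shares need not hold in the data. Odds ratios were stratified by 3 depth classes of equal size with 0.5 added, and tested by exact permutation (scipy 1.17.1). Where a count was 0, a limit of 3 counts was used. Each mouse gave 1 library, so the spread between mice includes that between libraries.

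The 2 genes, the 16 lists of 123 genes and the tests were chosen with earlier results of these data known. Named genes were the members and their paralogs, every gene called in a list with up to 3 others, the 5 genes most like each member in pattern, and the called genes, up to 5 a direction, that went 1 way in every mouse. Sequences are RefSeq's (GRCm38.p6), searched before the start site only, and positions GENCODE's. The letters A to D name different animals in each group, were not used to pair them in the main fits, and are not said to mark a shared preparation.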

Additional observations from a re-analysis of the deposited data

Results flagged for a closer look

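Some values stood apart from the other mice of their set, where the gap to the nearest mouse exceeded Dixon's 95% critical value, which chance exceeds in about 1 in 20 sets. The flagged CPM values came from the lists of 123 genes and the log2 ratios from 29 sets, so some flags would arise by chance alone. Among the 4 aged mice, aged A was highest for Sms, spermine synthase, at 43.9 CPM against 23.1 to 24.8, for Il4ra at 13.0 CPM against 6.79 to 7.10, for Lyz2 at 7.32 CPM and for Retnla at 5.69 CPM, the latter at 0 in the other 3. Aged D was highest for the AV factor Elf5, at 15.4 CPM.

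Among the log2 ratios of positive over negative HS cells in the 7 mice, Gm17416 in aged B (4.64) and Tppp3 in aged B (1.79) were the highest for Tph1. 1600014C10Rik in young C (0.0537) was the 1 mouse above 0 and Fxyd2 in aged D (-0.53) the 1 mouse below 0. For Arg1, Hba-a1 in young B (-9.06) was the lowest.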

How the results depend on the processing

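The age fit called 529 genes, 574 with DESeq2, 1215 with no filter on low counts, 168 with HS cells thinned to 2000 UMIs (4322 genes tested) and 134 to 554 without 1 mouse. With the replicate letter as a block it called 165. The labels do not say whether libraries of the same letter were prepared together. Correlations of same-letter deviations were -0.09, 0.07 and -0.03, against -0.10 to 0.11 between different letters, which cannot settle it. The Tph1 comparison called 14 genes, and 6 with DESeq2, 37 with no filter, 28 with no fold minimum, 6 with thinned cells, 6 in aged mice alone, 0 with no mouse block and 8 to 19 without 1 mouse. The Arg1 comparison called 13, and 3 with DESeq2, 33 with no filter, 25 with no fold minimum, 6 with thinned cells, 6 in young mice alone, 1 at 2 or more UMIs against none, 0 with no mouse block and 8 to 13 without 1 mouse. The age fit called 206 without young A, 240 without young B, 134 without young C, 315 without aged C and 253 without aged D. The Tph1 comparison called 8 without young C, and the Arg1 comparison 8 without aged A, B or D. The fold of Tph1 was 7.80 as a ratio of medians and 3.10 to 8.996 without 1 mouse. The gaps in shares moved to 19.9 percentage points (Tph1) and 21.5 (Arg1) in thinned cells, where the ratios of shares were 3.20 and 4.66. At 2 or more UMIs the gap for Arg1 was 33.1. Reversed values were the co-detection at 2 or more UMIs (0.17) and, for Arg1-positive cells in young mice alone, Clca3a2 (0.12), Upk3a (0.0931), Pcp4 (0.32) and Tph1 (0.18). Of 604 values of 40 named results under other settings, 407 kept their direction and side of the threshold, 193 kept the direction and lost the call and 4 reversed. DESeq2 gave no adjusted p for 10 further values, among them Crym and Odc1. The co-detection value ranged from -0.35 to -0.12 without 1 mouse, and the fold of Arg1 from 4.88 to 9.07. Where not named above, the cause of a change was not tested. The number of cells limits the shares, with 92 HS cells in aged D and 4 to 6 cells with both transcripts in young B and C.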
